A study of Mus musculus with 6 samples.

Results

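The Pcsk2 locus on mouse chromosome 2 carries the gene for prohormone convertase 2 and, on the opposite strand, the annotated non-coding genes Pcsk2os1 and Pcsk2os2. The 3 genes were chosen by name, after their counts in these data had been seen, and they are 3 of the 15286 genes of the count table. All 3 passed the low-count filter that left 5478 genes for testing. Their levels, the size of the opposite-strand rows included, are therefore given as a description without a test. The data are RNA-seq read counts from islets of Langerhans, the endocrine cell clusters of the pancreas, of 6 male mice of 12 weeks on a C57Bl/6 N background. The 3 flox/flox mice were homozygous for a floxed, promoter-driven neo cassette in the first intron of the lncRNA gene P07Rik. That allele is constitutive and not restricted to islets. The 3 WT mice were their littermates, 4 of the 6 mice came from litter 1 and 2 from litter 2. Mice were fasted overnight, and hand-picked islets were kept for 2 h at 3 mM glucose before RNA was extracted, in both groups alike. P07Rik itself was not analysed here.

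Prohormone convertase 2 is a subtilisin-like protease of the regulated secretory pathway. It is made as an inactive precursor, is escorted by the 7B2 protein encoded by Scg5, and becomes active in acidifying secretory granules, where it cuts prohormones at paired basic residues. In islets it is known for releasing glucagon from proglucagon in α-cells and, together with prohormone convertase 1/3 encoded by Pcsk1, for converting proinsulin to insulin in β-cells. A gene annotated as opposite strand runs through or beside its host on the other DNA strand, so wherever exons of both meet, the RNA of one is complementary to the RNA of the other.

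In the GENCODE annotation of GRCm38 (mm10), Pcsk2 (ENSMUSG00000027419) lies on the plus strand at chr2:143546156-143816285, a span of 270130 bp. Its coding transcript, Pcsk2-201, has 12 exons and 4723 nt, and its coding sequence takes up 1914 nt with the stop codon. A shorter transcript without a coding sequence, Pcsk2-202, has 2 exons and 3686 nt. Pcsk2os1 (ENSMUSG00000086171) lies on the minus strand at chr2:143535476-143547837, across the start of Pcsk2. Its transcripts, Pcsk2os1-201 and Pcsk2os1-202, have 3 and 4 exons and 4233 and 527 nt. Pcsk2os2 (ENSMUSG00000087115) lies on the minus strand at chr2:143747583-143795965, wholly inside Pcsk2. Its transcripts, Pcsk2os2-201 and Pcsk2os2-202, have 3 exons each and 3370 and 541 nt. Both opposite-strand genes have the biotype antisense.

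The exons of the opposite-strand genes meet exons of Pcsk2 in 3 places. The bases at which they meet are printed because there both genes have the same sequence on opposite strands. A read lying wholly within such bases can be told apart by strand alone. With reads of 125 nt that is possible only in exon 1, where 260 bp are shared. The stretches of 77 bp in exon 6 and 22 bp in exon 10 are shorter than a read, so reads that touch them run on into other bases. The coding part of exon 1 of Pcsk2 (chr2:143546491-143546664, plus strand) lies wholly opposite the first exon of Pcsk2os1-201. Exon 6 (chr2:143749125-143749201) lies wholly opposite Pcsk2os2-201. Of exon 10 (chr2:143795944-143796044), the first 22 of 101 bases lie opposite Pcsk2os2-202. Sequences are those of Pcsk2-201 in GENCODE, 5′ to 3′. Capitals mark the bases shared with an exon on the opposite strand.
Pcsk2 exon 1, coding part: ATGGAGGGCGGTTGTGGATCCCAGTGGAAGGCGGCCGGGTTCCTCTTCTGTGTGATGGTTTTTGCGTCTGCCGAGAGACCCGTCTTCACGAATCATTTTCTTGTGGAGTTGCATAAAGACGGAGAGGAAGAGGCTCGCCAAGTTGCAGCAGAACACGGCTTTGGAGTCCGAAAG
Pcsk2 exon 6: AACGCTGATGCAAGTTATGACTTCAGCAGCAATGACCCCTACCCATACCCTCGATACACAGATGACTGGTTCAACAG
Pcsk2 exon 10: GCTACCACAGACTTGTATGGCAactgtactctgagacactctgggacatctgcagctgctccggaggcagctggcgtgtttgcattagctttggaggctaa

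The first stretch opens with the start codon and encodes the beginning of the protein, which includes its signal peptide. The exact reverse complement of each run of capitals was found in the opposite-strand transcript named with it. Together with a non-coding part of exon 1, the shared stretches came to 359 bp, or 4.54% of the 7910 bp covered by Pcsk2 exons. Pcsk2os1 shared 260 bp of its 4454 exonic bp (5.84%) and Pcsk2os2 shared 99 bp of 3452 (2.87%). Most exonic bases of each of the 3 genes thus faced no exon of the others.

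**Figure D1:**
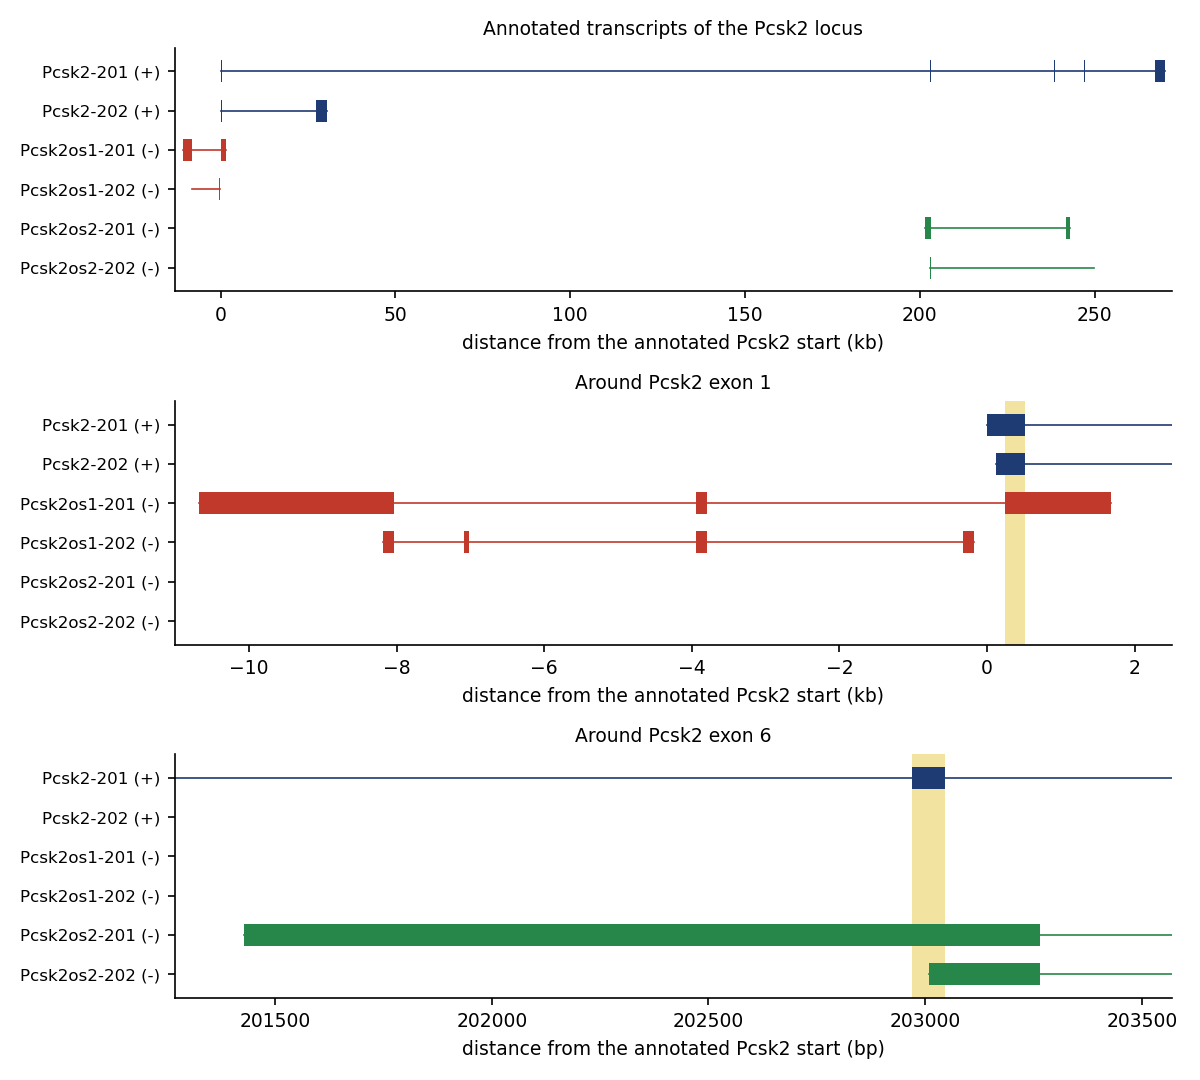
Annotated transcripts of the locus by distance from the Pcsk2 start (upper panel in kb), with boxes for exons, lines for introns and the strand in parentheses; the lower panels enlarge exon 1 (kb) and exon 6 (bp), with the bases shared by exons of both strands shaded. Pcsk2os1 reaches over the first exon, with 260 shared bp, and Pcsk2os2 covers the whole of exon 6.

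The libraries were strand-specific and HTSeq counted them with its default strand setting, which assigns a read to genes on the strand of the read. Whether the reads of this kit run along or against the RNA is not given in the sources used here. Which strand's RNA each row holds was not tested, so counts are given below by row and not as levels of the RNA named. Total counts per library ranged from 611181 to 800255. These totals are not the sequencing depth. The depth stated by the study is many times larger, so only a small part of the reads entered any row. Where the other reads went was not tested. Ranks and shares below are of the counted reads only. The Ins2 row, for the most abundant hormone mRNA known in islets, held 96 to 205 counts per library. In flox/flox replicate 3 the row AY036118 took 41.0% of the counts, against 13.6% to 22.1% in the others. The marker rows were low too: summed over the 10 β-cell markers they held 327 to 469 counts in WT and 225 to 357 in flox/flox libraries. Of 8 α-cell markers, 3 had a row, with sums of 48 to 133 and 31 to 69, and the defining genes Irx1 and Irx2 had none. Of the 10 acinar markers 8 had rows, summing to 58 to 75 counts in WT and 32 to 40 in flox/flox. All these sums are raw counts, not scaled to library size, and differences between them were not tested. The 1 acinar marker tested, Cel, overlapped between genotypes after scaling (log2 fold change -0.34, SE 0.305, edgeR). Over all genes tested, 3.69% were lower in every flox/flox library than in any WT library. The delta and PP, ductal, endothelial, stromal, immune and Schwann cell markers summed to 19 to 47, 58 to 92, 10 to 23, 2 to 7, 1 to 12 and 3 to 11 counts per library. Of these markers 10 passed the low-count filter, none of them endothelial, stromal, immune or Schwann. Of the 10, 0 were called by genotype (background 0%), and by litter Gcg and the ductal keratin gene Krt7 were (background 11.3%; log2 fold changes of litter 2 over litter 1 of -1.13 and 0.84, edgeR). The part of these cells in the results was not tested. In bulk islets, fewer cells of a type and less RNA per cell cannot be told apart.

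The Pcsk2 row held 88, 139 and 102 counts in WT replicates 1 to 3, and 105, 90 and 73 in flox/flox replicates 1 to 3. The Pcsk2os1 row held 6565, 6695 and 6474 counts in WT and 6447, 5292 and 4720 in flox/flox. The Pcsk2os2 row held 7015, 7006 and 6933 counts in WT and 7336, 5585 and 5310 in flox/flox. In every library the order was Pcsk2os2, then Pcsk2os1, then Pcsk2. The opposite-strand rows were among the largest of the whole table. With means of 6531 ± 855 and 6032 ± 820 counts (SD, n = 6) they ranked 9 and 10 of 15286 rows, and the Pcsk2 row, at 99.5 ± 22.5, ranked 968. Both opposite-strand rows were far above the Pcsk2 row, whereas the ranges of Pcsk2os1 and Pcsk2os2 overlapped.

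Scaled to library size as CPM, with TMM normalization, the Pcsk2 row stood at 120.7, 180.4 and 137.9 CPM in WT and 155.4, 158.5 and 127.6 CPM in flox/flox. The Pcsk2os1 row stood at 9007, 8690 and 8753 CPM in WT and 9544, 9320 and 8249 CPM in flox/flox. The Pcsk2os2 row stood at 9625, 9093 and 9373 CPM in WT and 10860, 9836 and 9280 CPM in flox/flox. The genotypes overlapped in all 3 rows, while over all genes tested 3.69% were lower in every flox/flox library than in any WT library and 3.74% higher. WT replicate 2 was the highest library of the Pcsk2 row but the lowest WT library of both others. The coefficient of variation over the 6 libraries was 15.1% for Pcsk2, 5.23% for Pcsk2os1 and 6.57% for Pcsk2os2.

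**Figure D2:**
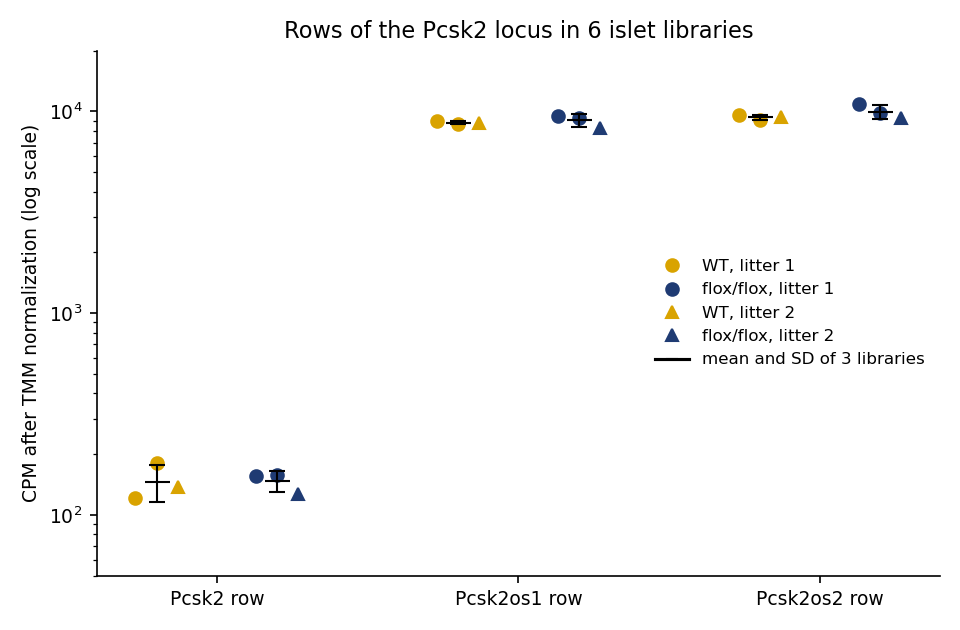
CPM after TMM normalization (log axis) of the 3 rows in each library, coloured by genotype with circles for litter 1 and triangles for litter 2; black bars give the mean and SD of 3 libraries. The opposite-strand rows sit between 8249 and 10860 CPM, the Pcsk2 row between 120.7 and 180.4 CPM, and WT and flox/flox overlap in each row.

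Per kb of the exons annotated to each row, the mean was 12.6 counts for Pcsk2, 1354 for Pcsk2os1 and 1892 for Pcsk2os2. The Pcsk2os1 row was thus 108 times and the Pcsk2os2 row 150 times as dense as the Pcsk2 row. The ranges over libraries were 9.23 to 17.6, 1060 to 1503 and 1538 to 2125 counts per kb, so that on this scale the order of all 3 rows held without overlap. These densities assume that reads came from a row's own exons. If the reads ran against the RNA, reads of spliced Pcsk2 RNA could enter the opposite-strand rows only where they touch shared bases, and per shared base the counts came to 23.2 for Pcsk2os1 and 66.0 for Pcsk2os2. The factors of 108 and 150 would then not apply.

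Of all counts at the locus, 99.4%, 99.0% and 99.2% fell to the opposite-strand rows in WT replicates 1 to 3, and 99.2%, 99.2% and 99.3% in flox/flox. The share is one of rows, and the orientation was not tested. With reads running against the RNA it would be the share of counted reads that came from RNA of the Pcsk2 strand. Reads of that RNA outside exons of the opposite-strand genes would then enter none of the 3 rows. The exact (Clopper-Pearson) 95% intervals, which cover counting error only, lay between 98.8% and 99.5%. The summed opposite-strand rows were 154.3, 98.6 and 131.4 times the Pcsk2 row in WT and 131.3, 120.9 and 137.4 times in flox/flox. The spread of this ratio was wider in WT, where it ran from the lowest to the highest of the 6 libraries. On the log2 scale the ratio was 6.98 ± 0.33 in WT and 7.02 ± 0.094 in flox/flox (SD, n = 3 each). The difference of 0.042 was smaller than the SD of either genotype. Tested against relabelled libraries, it had a p of 0.9 (exact permutation test, two-sided, where 3 libraries against 3 allow no p below 0.1). The difference was negative, at -0.14, without WT replicate 2, and -0.00028 without flox/flox replicate 3.

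The ratio of the Pcsk2os2 row to the Pcsk2os1 row was tight: 1.07, 1.05 and 1.07 in WT, and 1.14, 1.06 and 1.13 in flox/flox, with a mean of 1.08 ± 0.038 (SD, n = 6). Flox/flox replicate 2, at 1.06, lay within the WT range. The difference between genotypes, a comparison added after the values were seen, was 0.058 on the log2 scale (exact permutation test, two-sided, p = 0.3). For this ratio of counts the annotation offers several lengths to set it against. The exonic bases of Pcsk2os2 are 0.775 times those of Pcsk2os1, and the bases shared with Pcsk2 exons are 0.381 times. A read of 125 nt placed on Pcsk2-201 touches bases shared with Pcsk2os1 at 384 start positions and with Pcsk2os2 at 347, a ratio of 0.904. Spread over these positions, the counts came to 15.7 per start position for Pcsk2os1 (12.3 to 17.4 over libraries) and 18.8 for Pcsk2os2 (15.3 to 21.1). The count ratio of 1.08 equalled none of these ratios of lengths. These are descriptions of 2 rows. Total RNA also holds unspliced transcripts, and the table does not show where along a gene its reads lay.

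The study asked which islet transcripts differed in flox/flox mice. No difference was detectable in any of the 3 rows at these counts. The means were 146.4 ± 30.7 CPM in WT and 147.2 ± 17.0 in flox/flox for Pcsk2, 8817 ± 168 and 9038 ± 692 for Pcsk2os1, and 9364 ± 266 and 9992 ± 802 for Pcsk2os2 (SD, n = 3 each). The log2 fold change of the Pcsk2 row was 0.0078 (SE 0.19, 95% interval -0.40 to 0.42). That of Pcsk2os1 was 0.036 (SE 0.16, -0.31 to 0.38), and that of Pcsk2os2 0.094 (SE 0.16, -0.25 to 0.44). The adjusted p was 1.00 for each (edgeR quasi-likelihood test, Benjamini-Hochberg). The background was as low: 0 of the 5478 genes tested (0%) passed, by DESeq2 and limma-voom as well, and 101 (1.84%) had an unadjusted p under 0.05 in edgeR, which none of the 3 rows had. With litter as a block 3 genes (0.0548%) passed in edgeR and 0 in DESeq2. In the edgeR block fit 296 (5.4%) had an unadjusted p under 0.05, and again none of the 3 rows was among them. The sign of the Pcsk2 value had no stability, running from -0.11 without WT replicate 1 to 0.19 without WT replicate 2. With library size in place of TMM all 3 values were negative, at -0.18 for Pcsk2, -0.16 for Pcsk2os1 and -0.10 for Pcsk2os2, a scaling that put the median of all genes at -0.23.

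Litter, the other label that varied, was associated with more differences, with 620 of 5478 genes (11.3%) called between litter 2 and litter 1 and 1379 (25.2%) at an unadjusted p under 0.05. The first count was 187 with DESeq2, 265 with library size only and 233 without WT replicate 3. None of the 3 rows was called in any of these. Means over litters 1 and 2 were 153.8 and 132.7 CPM for Pcsk2, 9140 and 8501 CPM for Pcsk2os1, and 9854 and 9326 CPM for Pcsk2os2. All were lower in litter 2, but the libraries of both litters overlapped for each row. The log2 fold change of litter 2 over litter 1, with genotype in the model, was -0.21 for Pcsk2 (SE 0.17, 95% interval -0.54 to 0.13; adjusted p = 0.459 by edgeR's quasi-likelihood test). It was -0.10 for Pcsk2os1 (SE 0.14, -0.39 to 0.19; adjusted p = 0.698) and -0.077 for Pcsk2os2 (SE 0.15, -0.37 to 0.21; adjusted p = 0.789). Flox/flox replicate 3 was 1 of the 2 mice of litter 2. Without it the Pcsk2os1 value was -0.0084 and the Pcsk2os2 value 0.0095.

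**Figure D3:**
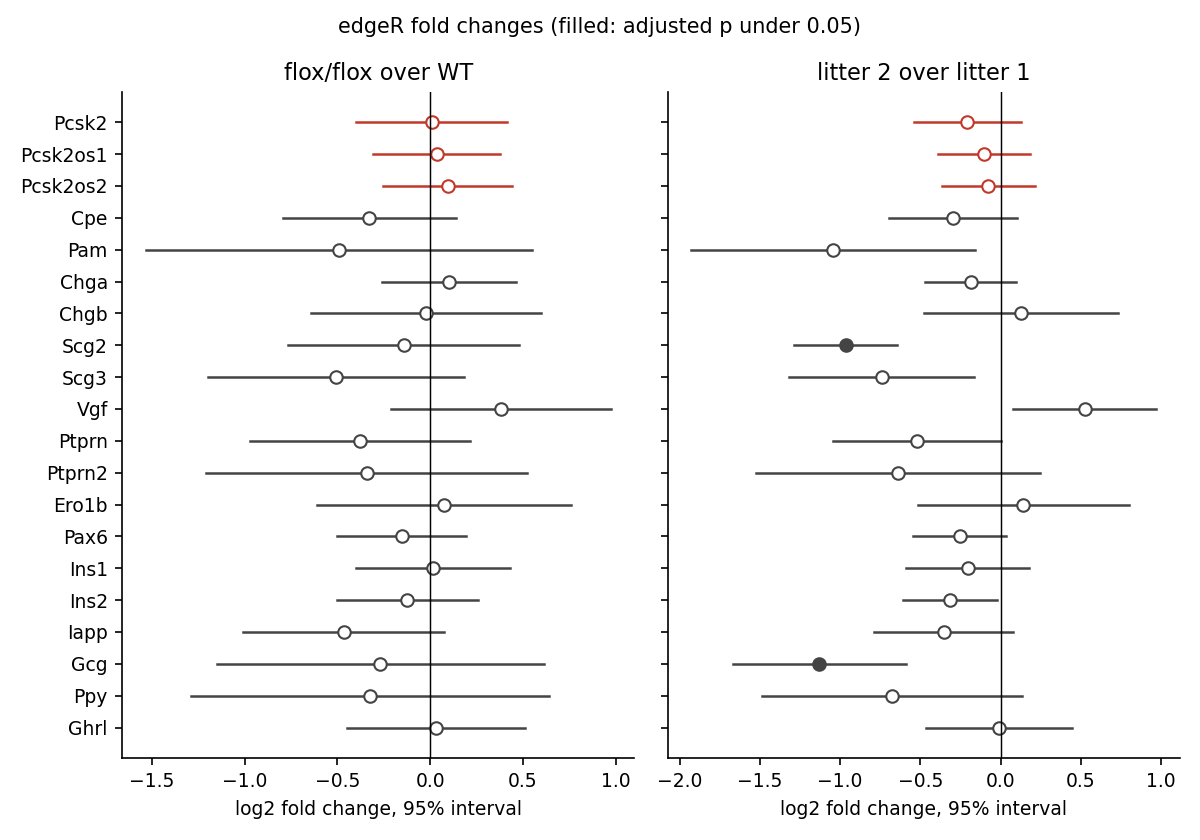
Log2 fold changes with 95% intervals (edgeR quasi-likelihood) for the 3 rows of the locus (red) and the tested genes of prohormone processing and its substrates (grey), by genotype on the left and by litter on the right; filled points passed an adjusted p of 0.05. No point is filled for genotype, and Scg2 and Gcg are filled for litter, at -0.96 and -1.13.

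The opposite-strand rows varied little for the table. The SD of log2 CPM over the 6 libraries was 0.076 for Pcsk2os1 and 0.092 for Pcsk2os2, against a median of 0.31 over the 5478 genes tested. Counting error shrinks with depth, so the fairer comparison is with the 44 genes of 1000 or more mean counts, whose median was 0.17. Pcsk2os1 ranked 5 and Pcsk2os2 ranked 7 from the lowest SD among those 44. The SD of the Pcsk2 row was 0.21, rank 1368 of 5478. Over the 6 libraries the log2 CPM values of the opposite-strand rows had a Pearson r of 0.84 with each other. The Pcsk2 row had an r of 0.31 with Pcsk2os1 and 0.080 with Pcsk2os2. The points share litter, depth and normalization, so these are descriptions only.

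The genes whose pattern was most like that of the Pcsk2 row were Gm13556, Gm44123, Gm44097, Gm16166 and Mib2, with r from 0.95 to 0.97 over 6 libraries. For Pcsk2os1 they were Tprkb, Gm40117, Kcnf1, 4933416M07Rik and Stk16 (r 0.97 to 0.98), and for Pcsk2os2 AC157931.1, Pde5a, Gm29383, Gm37270 and Kdm6bos (r 0.95 to 0.99). None of the 15 was shared between rows, and neither opposite-strand row was on the list of the other. With 6 points such values arise readily: 17 genes had an r above 0.9 with Pcsk2, 71 with Pcsk2os1 and 21 with Pcsk2os2.

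The annotation holds 299 genes named, like Pcsk2os1 and Pcsk2os2, as opposite strand of a host gene. In 142 pairs both the opposite-strand gene and its host had a row, all of them on opposite strands. The opposite-strand row was the larger in 105 of the 142 (73.9%), with a median ratio to the host of 3.22. Among the 105 pairs in which either mean reached 10 counts, it was the larger in 80 (76.2%), with a median ratio of 8. An excess of the opposite-strand row was thus common in the table. In counts, Pcsk2os2 and Pcsk2os1 had the highest means of all such rows, followed by Junos, the opposite-strand gene of the transcription factor gene Jun, at 1753. The ratio to the host was 65.6 for Pcsk2os2 and 60.6 for Pcsk2os1. A higher ratio was found in 11 pairs for Pcsk2os2 and in 13 for Pcsk2os1, up to 131.5 for Junos over Jun.

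**Figure D4:**
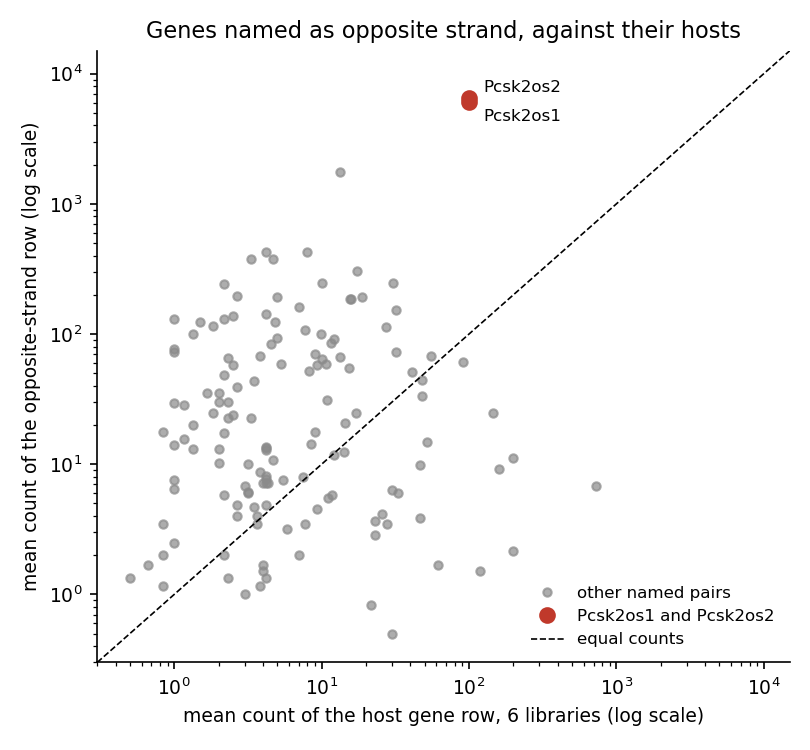
Mean count over 6 libraries of each row named as opposite strand against that of its host (both axes log), for 142 pairs; the dashed line marks equal counts. Pcsk2os1 and Pcsk2os2 (red) lie highest, at 6032 and 6531 counts over a host row of 99.5, and 105 of the 142 points lie above the line.

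The same comparison was open for other genes of the pathway whose exons meet exons on the other strand. The row of Ptprn, a granule membrane protein, held 33.8 counts on average and that of Gm28294, opposite it, 763. Neurod1, an islet transcription factor gene, had 11 counts against 386 for Gm26755. Pcsk7, a convertase of the constitutive pathway, had 12.7, against 122 for Rnf214 and 33.5 for Tagln. The order was the other way round for Pcsk1n, which encodes an inhibitor of prohormone convertase 1/3, with 9.67 against 1.67 for Eras. It was also the other way round for Ghrl, the ghrelin gene, with 40.8 against 18.7 for Gm44033.

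The other rows of the pathway were small. Of the convertase family, Pcsk7 was tested beside Pcsk2 and had a log2 fold change by genotype of -0.24 (SE 0.39), which was not called. Pcsk1 held 2 to 5 counts per library and fell below the filter. Of 21 genes of prohormone processing, 19 had a row, 11 were tested and 0 were called by genotype, with a median log2 fold change of -0.15 against -0.011 over all genes tested. Scg5, whose 7B2 product escorts the convertase, held 1 to 15 counts and was not tested. Cpe, the carboxypeptidase that trims the basic residues after the convertases have cut, held 41 to 98 counts and had a log2 fold change of -0.33 (SE 0.22). Chga, a granin of the secretory granule, held 128 to 214 counts and had a value of 0.10 (SE 0.17). Per kb of exon, the row of Cpe held 23.5 counts and that of Scg2, another granin, 60.8, both denser than the Pcsk2 row and far below the opposite-strand rows.

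By litter, 1 of the 11 tested processing genes was called, a share near the 11.3% of all genes tested. Scg2 held 170, 257 and 102 counts in WT and 156, 154 and 78 in flox/flox, with the lowest count of each genotype in its litter 2 mouse. Its log2 fold change of litter 2 over litter 1 was -0.96 (SE 0.16, adjusted p = 1.9e-05, edgeR quasi-likelihood test), and the list's median was -0.30 against -0.0092 over all genes tested. Of the 12 substrates of the convertases, 9 were tested, 0 were called by genotype, and 2, Scg2 and Gcg, were called by litter, where 11.3% of all genes were. Gcg, which encodes proglucagon, the α-cell substrate of prohormone convertase 2, had a log2 fold change of -1.13 (SE 0.27, adjusted p = 0.00267, edgeR). The Pcsk2 row was not called in the same contrast. Whether its value differed from that of Gcg was not tested. Ins2 held 96 to 205 counts and had values of -0.12 by genotype (SE 0.18) and -0.32 by litter (SE 0.15, adjusted p = 0.162 by edgeR).

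Around the locus, 42 genes of the annotation lie within 1 Mb of the ends of Pcsk2, and 15 of them had a row. None came near the opposite-strand rows, the largest being Rrbp1, a ribosome-binding protein gene of the endoplasmic reticulum, at 233.5 counts on average. Of the 3 neighbours tested, 0 were called by genotype. By litter, where 11.3% of all genes tested were called, Rrbp1 was the 1 of the 3 called, at -0.58 (SE 0.14, adjusted p = 0.00269, edgeR quasi-likelihood test). The high counts were thus seen in Pcsk2os1 and Pcsk2os2 and in no neighbour with a row. Of those 15 neighbours, 4 had exons that meet exons on the other strand. Which strand's RNA the neighbour rows hold was not tested either.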

How the data were processed

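Per the labels and the study's methods, strand-specific total RNA libraries of mouse islets (3 WT, 3 flox/flox) were sequenced as single-end reads of 125 bp. The authors discarded reads mapping to rRNA, aligned what remained to mm10 (Hisat2 2.1.0) and obtained gene counts for Ensembl 88 from HTSeq (minimum alignment quality 1, otherwise default). The authors deposited these counts without normalization, as whole numbers; every listed gene has at least 3 over the 6 libraries. Fold changes and p-values that the authors computed with DESeq2, held in a further table, were not used.

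Genes were matched by Ensembl identifier to GENCODE M21 (Ensembl 96, GRCm38), a later version than the authors'; 15258 of 15286 matched. Ero1b was found under an older symbol. The main test was edgeR 4.0.16's quasi-likelihood test in R 4.3.3 over the whole table, with genotype as the only term, TMM, the default low-count filter (minimum count 10) and Benjamini-Hochberg adjustment. The 5478 genes it covered hold 95.4% of the counts. The litter contrast had genotype in the model. Standard errors are those implied by the F statistic. The fit was checked on simulated data. Ratios were compared by exact permutation of libraries. The genes named are the 3 members, fixed lists of convertases, processing genes, substrates and cell type markers, neighbours, the 5 most similar rows and pairs named as opposite strand; AY036118 was named after its values were seen, and some listed genes are not reported here. The members and lists were chosen with earlier results of these data known.

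Litter is taken from the labels and pairs WT with flox/flox mice, the controls having been littermates. Deviations from genotype means correlated at 0.14 to 0.46 within litters and at -0.35 to -0.25 between them. Such deviations cancel out within a genotype, so correlations of both signs were built in. The values show only which pairs took which sign. Each library is 1 mouse. Alternatives were RLE, upper quartile and library size scaling, TMM factors computed without the 10 most abundant genes (which include both opposite-strand rows; these stayed in the test), other low-count filters, DESeq2 1.42.0, limma-voom (limma 3.58.1), robust estimation, litter as a block, a litter model without genotype, 0.5 added to counts, counts per kb, and each library left out in turn.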

Additional observations from a re-analysis of the deposited data

How the results depend on the processing

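The members' fold changes passed an adjusted p of 0.05 under none of the alternatives; adjusted p ranged from 0.940 to 1.00 by genotype and from 0.223 to 0.985 by litter over the 3 rows, by edgeR, DESeq2 or limma-voom. Of 157 comparisons with an alternative, 137 were rated as the same. For a fold change this meant the same direction and side of the threshold, and for the log2 ratio the same direction. A number of genes called was rated the same if equal or within a set factor, as at 430 by litter without flox/flox replicate 3 against 620. A share was rated the same if it moved by less than the SD over libraries. The genotype value changed sign for Pcsk2 with upper quartile scaling (-0.0054), library size only (-0.18) and at least 10 counts in every library (-0.0076), and with library size only for Pcsk2os1 (-0.16) and Pcsk2os2 (-0.10). Library size only moved the median of all genes to -0.23 by genotype and -0.19 by litter. The number of genes called by genotype was 2 with library size only, 3 with litter as a replicate block in edgeR and 0 with the same block in DESeq2, and 0 to 1 with a library left out. The number called by litter was 265 with library size only, 187 with DESeq2, and 233 (without WT replicate 3) to 540 with a library left out. The block changed no call of a member: its genotype values were 0.0036 for Pcsk2, 0.033 for Pcsk2os1 and 0.092 for Pcsk2os2, and the log2 ratio of opposite-strand to Pcsk2 counts stayed at 0.042 (exact permutation p = 0.833 over 12 arrangements). The cause of these changes was not tested.

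With each library left out in turn, genotype values ran from -0.11 to 0.19 for Pcsk2, from 0.0020 to 0.10 for Pcsk2os1 and from 0.037 to 0.15 for Pcsk2os2. Litter values ran from -0.34 to -0.081 for Pcsk2, from -0.19 to -0.0084 for Pcsk2os1 and from -0.15 to 0.0095 for Pcsk2os2, the last without flox/flox replicate 3. The log2 ratio difference ran from -0.14 to 0.19. The processing list had 0 genotype calls throughout. The opposite-strand share of locus counts, 99.2%, ran from 99.19% to 99.26%. It was 99.615% with counts divided by kb of exon. With the same counts divided by kb of exon not shared with the other strand it was 99.613%. Reads on shared bases stayed in both values, so their likeness does not show what such reads contribute. Both assume that reads came from a row's own exons, which was not tested. Fewer than 150 counts per library in the Pcsk2 row limit what can be seen for it, and 3 mice per genotype limit all 3 rows.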
